A study of Mus musculus with 12 samples.

Results

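The 9 genes described here, Pdgfra, Pdgfrb, Cd34, Ly6a, Thy1, Dpp4, Pi16, Cd24a and F3, encode surface proteins that are used to sort or name the progenitor cells of adipose tissue. They were chosen by name and found by gene symbol, and the values of all transcripts of a gene that matched Ensembl were summed. All 9 were present among 22947 genes, and all 9 were among the 12775 genes that passed the filter on low values.

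Epididymal white adipose tissue was taken from 12 male C57BL/6J mice, 3 in each of 4 groups, and its mRNA was sequenced. All were 21 weeks old, were housed one to a cage and had been on their diets for 16 weeks. One group received a normal diet (ND) and the second a high-fat diet (HFD). The third group received the HFD with 1.5% by weight of an ethanol extract of chrysanthemum leaf (CLE), and the fourth the HFD with 0.003% by weight of luteolin (LU), a flavonoid of the plant, so that all groups except ND ate the HFD. Comparing HFD with ND addressed the effect of the diet, and comparing CLE and LU with HFD addressed what each supplement did on that diet. The sequenced mice were picked by the authors as representative of larger groups, and each library is 1 mouse. Libraries are named here by group and by the mouse number in the label.

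New fat cells arise from fibroblast-like progenitors that lie along vessels and in the connective tissue between the lobules of the fat pad. Such cells carry the platelet-derived growth factor receptors, together with Cd34 and Ly6a (Sca-1). Cells with Dpp4 and Pi16 are regarded as the least committed of them, and cells with F3 (CD142) as a distinct population that can restrain fat cell formation in its neighbours. None of the genes is private to progenitors: endothelial cells make Cd34 and Ly6a, mural cells make Pdgfrb, T cells make Thy1 and Dpp4, and B cells, neutrophils and epithelia make Cd24a. In RNA from whole tissue, fewer cells of a kind cannot be told apart from less RNA per cell.

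The values are FPKM, fragments scaled to the length of the transcript and to the size of the library, so that levels can be compared between genes. The number of reads behind them is unknown, and no counting interval can be given. Adipoq, the adiponectin gene of fat cells, had a mean of 1186 to 2136 FPKM in the 4 groups, and 10 of 11 genes of the epididymal epithelium fell below the filter. That filter asks for 3 libraries, so genes raised in fewer mice do not pass it. The 11 genes summed to 7.62 FPKM in LU mouse 8 and 6.65 FPKM in ND mouse 4, and to at most 0.74 FPKM in any HFD or CLE mouse. The summed values of all genes ranged from 435095 to 455040 per library, and libraries of a group correlated with each other at 0.978 to 0.991 across genes. A letter R stands in the labels of 4 libraries, LU mouse 2, CLE mouse 4 and ND mice 3 and 4, and in that of no HFD library. The column headers of these 4 libraries also end in the same string of digits, which the headers of the other libraries used here lack. What the letter and the digits mark is not given in the sources used here. No gene differed with the letter at an adjusted p under 0.05 in limma. At an unadjusted p under 0.05 there were 525 of 12775 genes, a share below the 0.05 expected if no gene differed. Cd34 (unadjusted p = 0.0155) and F3 (unadjusted p = 0.0479) were among them. For ND mouse 4 the values come from a column headed MD4, which was taken to be this mouse by inference from its number and letter.

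All 9 genes are annotated as protein-coding. On GRCm38, with the annotation of GENCODE M21, Pdgfra spans chr5:75152292-75198215 and Pdgfrb spans chr18:61045150-61085061, both on the plus strand. Cd34 lies at chr1:194938819-194961279 on the plus strand and Ly6a at chr15:74994877-74998031 on the minus strand. Thy1 occupies chr9:44043384-44048579 on the plus strand and Dpp4 chr2:62330073-62412231 on the minus strand. The positions of Pi16, Cd24a and F3, all on the plus strand, are chr17:29317680-29330593, chr10:43578284-43584265 and chr3:121723537-121735048.

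The genes differed widely in level. Averaged over the 12 libraries, Ly6a stood highest at 146 FPKM, ahead of Cd34 at 50.4, F3 at 28.5, Pdgfrb at 24.3, Pi16 at 21.0 and Pdgfra at 14.97, with Thy1 at 7.69, Dpp4 at 7.67 and Cd24a at 6.41 FPKM. The lowest Ly6a value of any library (92.7 FPKM) was above the highest Cd34 value (64.5 FPKM). Of the Ly6a sum, 60.1% lay in an assembled transcript that also covers the neighbouring gene Ly6c1, whose signal cannot be told apart there. Without that transcript, Ly6a was at 48.3, 41.4 and 30.6 FPKM in the HFD mice, below their Cd34 values of 56.5, 62.2 and 64.5 FPKM. Ly6a stayed above Cd34 in every ND and LU mouse and was mixed in CLE. The separation of Ly6a from Cd34 in all libraries therefore depends on that transcript. The lowest Cd34 value (37.5 FPKM) was just above the highest F3 value (37.2 FPKM). F3, Pdgfrb, Pi16 and Pdgfra overlapped in their ranges, as did Thy1, Dpp4 and Cd24a, so the order within those sets is not separated by the spread between libraries. Pi16 was the least even gene among mice of the same group, with a mean coefficient of variation of 32.3%, followed by Pdgfra at 25.9%, while Cd34 and F3 were the most even at 9.70% and 9.90%.

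**Figure D1:**
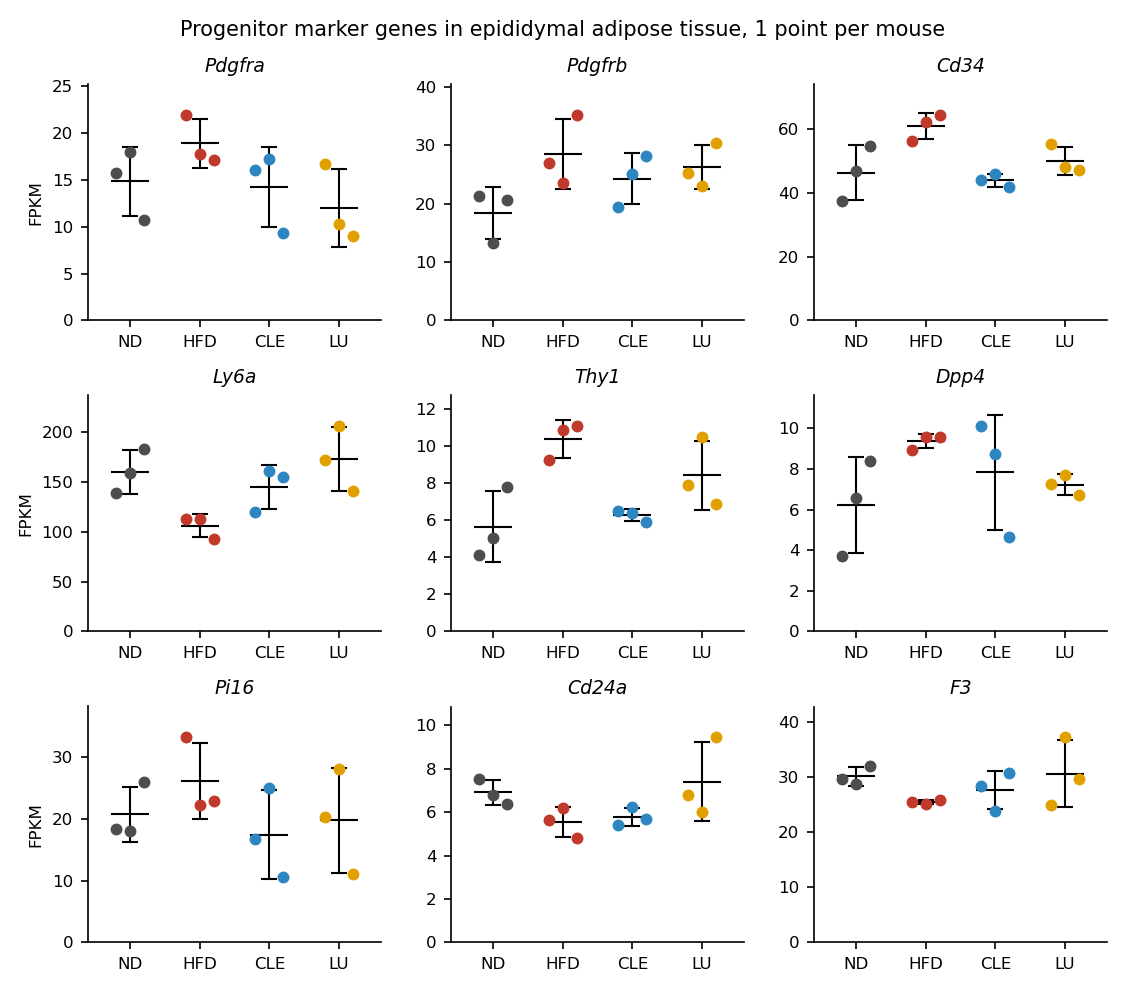
FPKM of each progenitor marker gene in the 3 mice of each group. Each point is 1 mouse, in the order of the mouse numbers, the horizontal bar is the group mean and the whiskers are 1 SD. The HFD points lie above all ND points for Pdgfrb, Cd34, Thy1 and Dpp4 and below all ND points for Ly6a, Cd24a and F3.

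The HFD was accompanied by higher Pdgfrb and Thy1 and by lower Ly6a. A gene was called changed where limma gave an adjusted p (Benjamini-Hochberg, over all genes tested) under 0.05 and the fold change on the log2(FPKM + 1) scale was over 1.5. By this rule 3 of the 9 genes were called in HFD against ND, where 25.6% of all genes tested were called. In CLE against HFD, 1 of 9 was called (Thy1, lower), against 16.5% of all genes. The count in LU against HFD was also 1 of 9 (Ly6a, higher), against 12.4% of all genes. The members' shares were thus near those of the genes at large. By direction, 14.9% of all genes tested were called higher and 10.8% lower in HFD against ND. The shares were 6.33% and 10.1% in CLE against HFD, and 4.81% and 7.64% in LU against HFD. Counts of called genes in the lists below are to be read beside these shares. The median log2 fold change of the 9 genes was 0.35 in HFD against ND (median of all genes -0.02), -0.29 in CLE against HFD (0.01) and -0.28 in LU against HFD (0.03). Both supplements are compared with the same 3 HFD mice, so their results are not independent of each other or of HFD against ND.

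Counted without a test, the 3 HFD mice did not overlap with the 3 ND mice for 7 of the 9 genes, and 59.5% of all genes tested showed the same separation. Of the 7, Pdgfrb, Cd34, Thy1 and Dpp4 were higher and Ly6a, Cd24a and F3 lower in HFD. The groups did not overlap for 3 of 9 genes in CLE against HFD (50.6% of all genes) and for 4 of 9 in LU against HFD (47.6% of all genes). For a single gene, an exact two-sided permutation test of 3 mice against 3 cannot give a p below 0.1, the value it gave for each of these separated pairs.

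**Figure D2:**
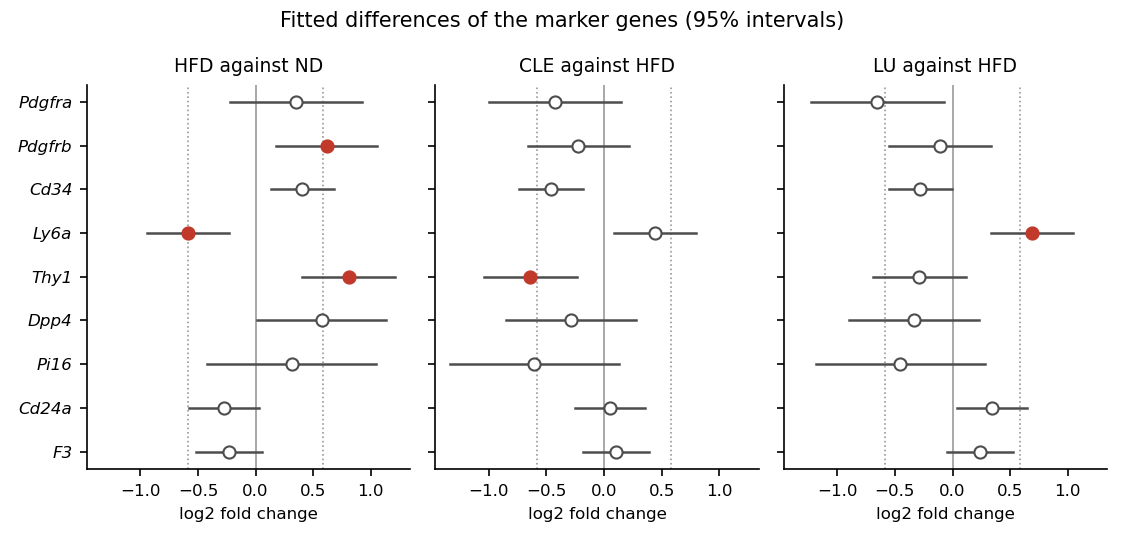
Fitted log2 fold changes of the 9 genes, on the log2(FPKM + 1) scale, with 95% confidence intervals from limma. Filled points were called, with an adjusted p under 0.05 and a change beyond the dotted lines at 1.5-fold, which held for Pdgfrb, Ly6a and Thy1 in HFD against ND, Thy1 in CLE against HFD and Ly6a in LU against HFD.

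The 2 growth factor receptors behaved differently from each other. Pdgfra, the receptor that marks fibroblast-like progenitors in most tissues, measured 15.7, 17.98 and 10.7 FPKM in ND mice 2, 3 and 4 and 21.9, 17.7 and 17.1 FPKM in HFD mice 12, 15 and 18. The ND and HFD values overlapped, and the log2 fold change of 0.35 (SE 0.26) did not pass the test (adjusted p = 0.286, limma). In CLE mice 2, 4 and 11 the gene was at 16.0, 17.2 and 9.30 FPKM, and in LU mice 2, 3 and 8 at 16.7, 10.3 and 8.97 FPKM. CLE mouse 11, LU mouse 3 and LU mouse 8 were low, while the rest of the supplemented mice were close to the lower HFD values. All 3 LU mice lay below all HFD mice, yet the difference of -0.65 (SE 0.26) missed the threshold with an adjusted p of 0.0872. Without LU mouse 2, which carries the letter R, the difference was -0.90 and was called (adjusted p = 0.0316). For CLE against HFD the difference was -0.42 (SE 0.26, adjusted p = 0.237), and without CLE mouse 11 it was -0.17 (adjusted p = 0.649). The difference between HFD and ND was 0.15 without ND mouse 4 (adjusted p = 0.685). Its main transcript, ENSMUST00000000476, held 95.9% of the Pdgfra signal.

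Pdgfrb, the receptor for the B chain that is shared by progenitors and the mural cells of vessels, measured 21.2, 13.3 and 20.6 FPKM in the ND mice and 26.9, 23.6 and 35.1 FPKM in the HFD mice. The lowest HFD mouse was above the highest ND mouse. The rise was 0.62 on the log2 scale (SE 0.20, adjusted p = 0.0242), a ratio of mean FPKM of 1.55. It fell short of the rule without ND mouse 3, the lowest library (0.41, adjusted p = 0.0948), and without HFD mouse 18, the highest (0.46, adjusted p = 0.101). In a fit with the R label as a covariate the difference was 0.55 (adjusted p = 0.0893). In the 8 unmarked libraries, where ND mouse 2 is the only ND library, it was 0.39. The CLE mice had 19.5, 25.1 and 28.1 FPKM and the LU mice 25.3, 23.0 and 30.4 FPKM, so that both groups overlapped with HFD. Neither CLE (-0.22, SE 0.20, adjusted p = 0.426) nor LU (-0.11, SE 0.20, adjusted p = 0.728) passed the test against HFD. Transcript ENSMUST00000025522 held 77.5% of the Pdgfrb signal, and an assembled variant over the same span held 20.8%.

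Of the 10 mural genes, those of the contractile and pericyte cells around vessels, none was higher and 3 were lower in HFD than in ND, with a median log2 fold change of -0.49. Tagln, a protein of smooth muscle, fell by 0.91. Their summed level was 514 to 688 FPKM in ND and 399 to 444 FPKM in HFD. Mcam alone went from a mean of 292 to 193 FPKM, while Cspg4, a defining pericyte gene, differed by -0.03. The part of mural cells in the Pdgfrb result was not tested. In CLE and in LU, 3 of the 10 were higher than in HFD and none lower, and Acta2, smooth muscle actin, rose by 0.96 in LU.

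None of the 4 genes for ligands of these receptors was called in any comparison. Pdgfd was higher than in HFD by 0.58 in CLE (adjusted p = 0.00976) and by 0.44 in LU (adjusted p = 0.0392), and Pdgfc was lower by -0.32 in CLE (adjusted p = 0.0283) and by -0.29 in LU (adjusted p = 0.0497), all under the fold limit. Pdgfa, the main ligand of Pdgfra, had mean levels of 5.13, 7.96, 6.48 and 7.97 FPKM in ND, HFD, CLE and LU. Pdgfb, which endothelial cells release to recruit mural cells, was at 19.6, 17.7, 23.7 and 24.5 FPKM in the same order. The means of Pdgfc were 6.72, 8.08, 6.27 and 6.40 FPKM, and those of Pdgfd 8.94, 7.42, 11.6 and 10.4 FPKM. The median of the 4 log2 fold changes was 0.06 in HFD against ND.

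Cd34 encodes a sialomucin of progenitors and of vessel endothelium. Its 2 main annotated forms read the same coding exons as far as the start of the last exon, which begins 156 bases earlier in the short form and brings a stop codon after 12 coding bases. The full-length form (ENSMUST00000016638) has 382 codons and the short form (ENSMUST00000110815) 325, so that the short form lacks most of the tail inside the cell. The letters on both sides of that junction are shown, from GENCODE M21, because the coding sequences part there. The first 18 letters are the end of the shared exon, the capitals are coding bases of the last exon on the plus strand of chromosome 1, which starts at 194959936 in the full-length and at 194959780 in the short form, and the last 3 letters of the short form are its stop codon.
Cd34 full-length form: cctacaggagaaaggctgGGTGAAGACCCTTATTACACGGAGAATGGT
Cd34 short form: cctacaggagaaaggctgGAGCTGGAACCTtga

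Summed over its transcripts, Cd34 was at 37.5, 46.9 and 54.7 FPKM in the ND mice, 56.5, 62.2 and 64.5 FPKM in the HFD mice, 44.1, 46.1 and 42.0 FPKM in the CLE mice and 55.3, 48.1 and 47.2 FPKM in the LU mice. Every HFD mouse was above every other mouse, although HFD mouse 12 exceeded LU mouse 2 and ND mouse 4 only narrowly. The difference between HFD and ND was 0.40 (SE 0.13, adjusted p = 0.0186) and that between CLE and HFD was -0.46 (SE 0.13, adjusted p = 0.0149). Both passed the p threshold, and neither reached the fold change of 1.5. In the unmarked libraries alone, with ND mouse 2 as the only ND library, the difference between HFD and ND was 0.69. Without ND mouse 2 it was 0.26 (adjusted p = 0.0651), without HFD mouse 15 0.39 (adjusted p = 0.0531) and without HFD mouse 18 0.36 (adjusted p = 0.0639), and in the highest transcript alone 0.32 (adjusted p = 0.066). The difference between CLE and HFD was -0.42 without HFD mouse 18 (adjusted p = 0.0557). For LU against HFD it was -0.28 (SE 0.13, adjusted p = 0.121).

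The short form carried 26.6% to 36.6% of the Cd34 signal in single libraries and 32.4% on average. Its mean share was 29.3% ± 2.41 (SD, n = 3) in ND, 33.3% ± 1.997 in HFD, 32.1% ± 3.79 in CLE and 34.4% ± 2.62 in LU, and an exact two-sided permutation test gave p = 0.1 for HFD against ND, the lowest p possible here. In FPKM, the full-length form rose from 27.3, 32.6 and 37.6 in the ND mice to 38.3, 39.6 and 43.4 in the HFD mice, and the short form from 9.96, 14.3 and 17.0 to 17.95, 22.1 and 20.9. Both forms were therefore higher in all HFD mice than in all ND mice. The split between forms was estimated by Cufflinks from reads many of which cover exons that both share, and the precision of that estimate is not known.

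**Figure D3:**
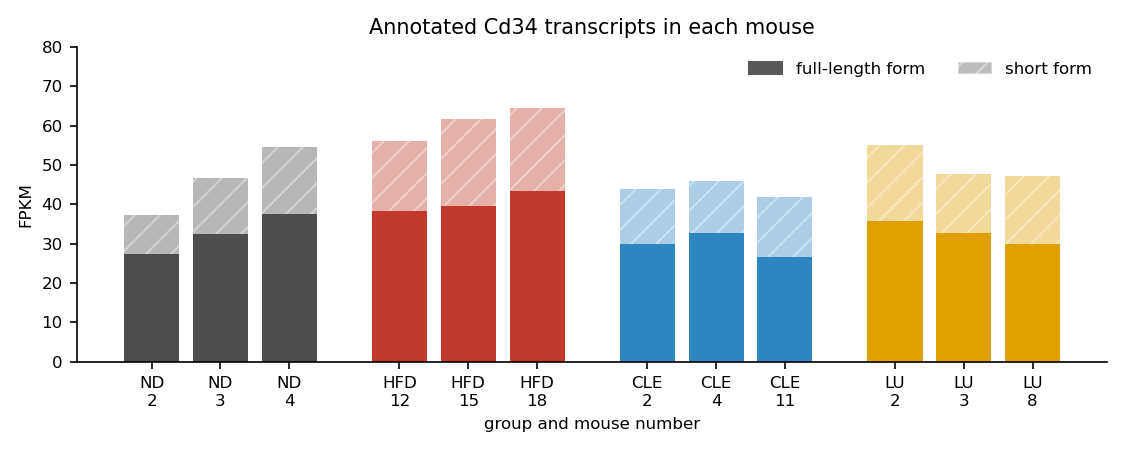
FPKM of the full-length (solid) and short (hatched) Cd34 transcripts in each mouse, stacked. The 3 HFD bars are the tallest, and the short form holds 26.6% to 36.6% of the gene's whole FPKM in each library.

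Ly6a encodes Sca-1, a small lipid-anchored protein of the cell surface that marks progenitors and is also made by endothelial cells. It was at 139, 159 and 183 FPKM in the ND mice and at 112, 113 and 92.7 FPKM in the HFD mice. In CLE it measured 119.9, 161 and 155 FPKM, and in LU 172, 206 and 141 FPKM. The HFD mice were the lowest of all, with no overlap with any other group. Ly6a was lower in HFD than in ND by -0.59 (SE 0.16, adjusted p = 0.0102), a fitted fold change of 1.504 that lies at the edge of the limit of 1.5. It was higher in LU than in HFD by 0.69 (SE 0.16, adjusted p = 0.00914), a ratio of mean FPKM of 1.63. For CLE against HFD the rise of 0.44 (SE 0.16) missed the threshold (adjusted p = 0.0533). The difference between CLE and LU was -0.25 (95% confidence interval -0.60 to 0.11), so CLE and LU were not separated for this gene.

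The Ly6a calls rested in part on single mice. Without ND mouse 4 the difference between HFD and ND was -0.49 (adjusted p = 0.0427) and without HFD mouse 18 it was -0.50 (adjusted p = 0.0448), both under the fold limit. In a fit with the R label as a covariate the difference was -0.47 (adjusted p = 0.0586). In the unmarked libraries, where ND mouse 2 is the only ND library, it was -0.39. Without LU mouse 3, the rise in LU was 0.56 (adjusted p = 0.0411) and also under the limit. Direction held in each of these.

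A neighbouring gene bears on these values. Of the FPKM assigned to Ly6a, 60.1% (55.3% to 67.0% in single libraries) was in 1 assembled transcript that runs from 74994877 to 75049000 on chromosome 15, far past the annotated end of Ly6a and over Ly6c1 at 75044018 to 75048830. Ly6c1 encodes a related surface protein of endothelial cells and monocytes. The first 90 coding bases of both genes, in ENSMUST00000187994 and ENSMUST00000065408, are shown because the genes are nearly alike there. Both lie on the minus strand, between 74996549 and 74997604 for Ly6a and between 75047450 and 75048511 for Ly6c1, and capitals mark the 4 positions at which they differ.
Ly6a: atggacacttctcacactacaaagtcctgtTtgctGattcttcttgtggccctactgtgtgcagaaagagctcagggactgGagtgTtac
Ly6c1: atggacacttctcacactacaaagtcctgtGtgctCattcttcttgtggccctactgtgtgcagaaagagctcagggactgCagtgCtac

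Over the whole coding sequence, 329 of 393 aligned bases (83.7%) were the same in the 2 genes, with a longest identical run of 48 bases. Without the long transcript, Ly6a was at 49.4, 71.0 and 71.7 FPKM in ND, 48.3, 41.4 and 30.6 FPKM in HFD, 41.6, 67.0 and 67.8 FPKM in CLE and 67.8, 87.6 and 54.8 FPKM in LU. On this count the HFD mice were still below all ND and LU mice, but CLE mouse 2 fell within the HFD range. These remaining Ly6a transcripts are the same ones that match Ensembl in full. In the fit with full matches only, the difference between HFD and ND was -0.66 (adjusted p = 0.0477) and that between LU and HFD was 0.79 (adjusted p = 0.0432), both called. Ly6c1 itself was at 153, 140 and 205 FPKM in ND, 83.6, 95.005 and 97.3 FPKM in HFD, 127, 166 and 146 FPKM in CLE and 152, 177 and 169 FPKM in LU. It was lower in HFD than in ND by -0.83 (adjusted p = 0.00063) and higher than in HFD by 0.66 in CLE (adjusted p = 0.00478) and by 0.84 in LU (adjusted p = 0.0017). In the long transcript, signal from Ly6a and from Ly6c1 cannot be told apart.

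**Figure D4:**
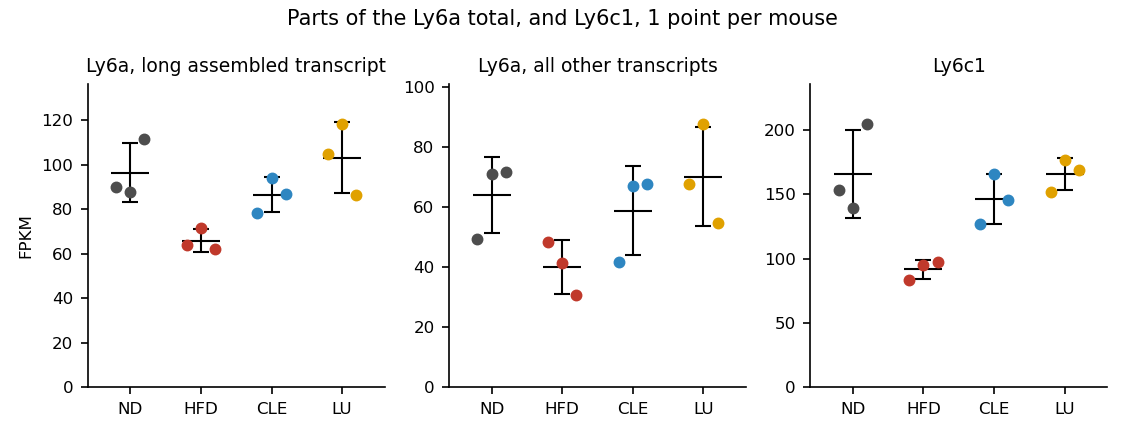
FPKM of the long assembled Ly6a transcript that also covers Ly6c1 (left), of all other Ly6a transcripts (middle) and of Ly6c1 (right), with 1 point per mouse, the group mean as a bar and 1 SD as whiskers. In the left and right panels the 3 HFD points lie below every other mouse, and in the middle panel CLE mouse 2 (41.6 FPKM) lies among them.

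Some endothelial genes were called in the direction of Ly6a. Of 10 endothelial genes, 4 were lower (10.8% of all genes tested) and none higher in HFD than in ND, with a median log2 fold change of -0.55. In CLE 6 (6.33% of all genes tested) and in LU 7 (4.81%) were higher than in HFD. Cldn5, a tight junction protein of vessel walls, fell by 1.14 in HFD, and Egfl7, a factor secreted by endothelium, fell by 1.10. The summed level of the 10 genes was 503 to 776 FPKM in ND, 337 to 526 FPKM in HFD, 562 to 827 FPKM in CLE and 625 to 731 FPKM in LU. Cd34, which endothelium also makes, went the other way. The part of endothelial RNA in the Ly6a result was not tested.

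Thy1, a lipid-anchored protein of fibroblasts, progenitors and T cells, was at 4.13, 5.03 and 7.81 FPKM in the ND mice, 9.24, 10.9 and 11.1 FPKM in the HFD mice, 6.52, 6.42 and 5.93 FPKM in the CLE mice and 7.93, 10.5 and 6.85 FPKM in the LU mice. All HFD mice were above all ND and all CLE mice, while LU mouse 3 reached into the HFD range. The rise in HFD was 0.81 (SE 0.18, adjusted p = 0.00356), a ratio of mean FPKM of 1.84, and it was called under all 26 alternative settings. These settings share most of the data and are not separate tests. In CLE the gene was lower than in HFD by -0.64 (SE 0.18, adjusted p = 0.0197), a ratio of 0.605. That call was lost without HFD mouse 15 (-0.61, adjusted p = 0.0601), without HFD mouse 18 (-0.60, adjusted p = 0.0644) and without CLE mouse 11 (-0.61, adjusted p = 0.0511). In LU the difference was -0.29 (SE 0.18, adjusted p = 0.273), and it was -0.44 without LU mouse 3 (adjusted p = 0.134) and -0.17 without LU mouse 8 (adjusted p = 0.578). CLE and LU did not overlap, but their difference of -0.35 (95% confidence interval -0.76 to 0.05) did not pass the test (adjusted p = 0.891).

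Of 10 genes of fibroblastic stroma, whose cells also make Thy1, 8 were higher and 1 lower in HFD than in ND (median 1.52), 8 were lower in CLE than in HFD and 7 were lower in LU. S100a4, a calcium-binding protein of fibroblasts and macrophages, rose by 2.58 in HFD, and Col1a1, a chain of type I collagen, rose by 2.12. T-cell genes were scarce: 2 of 8 reached the filter, with none called in either direction, and their summed level was 3.92 to 6.57 FPKM in ND, 4.30 to 7.44 FPKM in HFD and 4.66 to 4.81 FPKM in CLE. In LU it was 4.83, 12.8 and 5.75 FPKM, highest in LU mouse 3, the LU mouse with the most Thy1. LU mouse 2, however, had a lower sum than LU mouse 8 and more Thy1. In HFD mice 12, 15 and 18 the sum was 7.44, 6.57 and 4.30 FPKM, the reverse of their order in Thy1. All 10 myeloid genes were higher in HFD (median 3.01) and lower in CLE and in LU than in HFD. Trem2, a lipid receptor of macrophages, rose by 6.16 and Itgax, the CD11c integrin chain, by 4.76. All 8 proliferation genes rose with the HFD as well (median 1.44), among them Mki67 (1.63) and Top2a (1.53), which are made by dividing cells of any kind. The part of these cells in the Thy1 result was not tested.

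Dpp4 and Pi16 are used to mark the least committed progenitors. Dpp4, a peptidase of the cell surface, was at 3.73, 6.57 and 8.42 FPKM in the ND mice and at 8.95, 9.57 and 9.57 FPKM in the HFD mice. Summed over transcripts, the HFD values were above all ND values, which spread widely. In the main transcript, ENSMUST00000047812, which held 84.0% of the signal, the groups did overlap, since ND mouse 4 (7.995 FPKM) was above the HFD mice (7.76, 7.71 and 7.32 FPKM), and an assembled variant added 0.81, 1.44 and 1.16 FPKM in HFD and almost nothing in any other library. The difference of 0.57 (SE 0.26) missed the threshold (adjusted p = 0.0826), and without ND mouse 2 it was 0.30 (adjusted p = 0.319). It was called without ND mouse 4 (0.79, adjusted p = 0.0294) and with the R label as a covariate (0.83, adjusted p = 0.0296). In the unmarked libraries, with ND mouse 2 as the only ND library, the difference was 1.13. CLE mice had 10.1, 8.75 and 4.66 FPKM and LU mice 7.26, 7.71 and 6.70 FPKM. All LU mice were below all HFD mice, and in CLE only mouse 11 was far below them. In CLE mouse 2, however, 2.29 FPKM were in ENSMUST00000156871, which is annotated as a retained intron. In the main transcript, CLE mice 2, 4 and 11 had 6.67, 7.75 and 3.93 FPKM, so that CLE mouse 2 also lay below the HFD mice. Neither the difference for CLE (-0.29, SE 0.26, adjusted p = 0.423, and 0.01 without CLE mouse 11) nor that for LU (-0.33, SE 0.26, adjusted p = 0.364) passed the test.

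Pi16, a peptidase inhibitor anchored to the surface of these cells, was at 18.3, 18.03 and 25.9 FPKM in ND, 33.2, 22.3 and 22.8 FPKM in HFD, 16.8, 24.9 and 10.7 FPKM in CLE and 20.2, 28.0 and 11.0003 FPKM in LU. The groups overlapped in every pairing. CLE mouse 11 and LU mouse 8 had less than any other library. The differences were 0.31 for HFD against ND (SE 0.33, adjusted p = 0.458), -0.61 for CLE against HFD (SE 0.33, adjusted p = 0.186) and -0.45 for LU against HFD (SE 0.33, adjusted p = 0.345). Without HFD mouse 12 the first was 0.13 (adjusted p = 0.797), without CLE mouse 11 the second was -0.31 (adjusted p = 0.509), and without LU mouse 8 the third was -0.10 (adjusted p = 0.838). The intervals were wide, from -1.34 to 0.13 for CLE against HFD and from -1.18 to 0.28 for LU against HFD. Of its signal, 51.0% was in ENSMUST00000114701, 24.9% in ENSMUST00000114699 and 18.9% in ENSMUST00000135754, which is annotated as a retained intron.

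Other genes of the Dpp4+ and Pi16+ population, which lies in the connective tissue between fat lobules, gave no common direction. Of 15 such genes 11 were tested, and 2 rose in HFD (14.9% of all genes tested did), with a median of 0.12. Sema3c, a secreted guidance cue, was at a mean of 18.1 FPKM in ND and 45.6 FPKM in HFD, a rise of 1.30 (adjusted p = 9e-06), and fell by 0.76 in CLE and by 0.61 in LU against HFD. Igfbp5, a binding protein of insulin-like growth factors, rose by 0.69 in HFD and was not called in either supplement. The rest of the tested genes, Cd55, Anxa3, Dact2, Creb5, Ugdh, Efhd1, Igfbp6, Emilin2 and Ackr3, had log2 differences of -0.29 to 0.46 in HFD against ND, and none of them was called. Wnt2, Bmp7, Opcml and Has1 fell below the filter, with group means of at most 0.74 FPKM.

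Genes of the progenitors nearest to the fat cell fate were mixed too. Of 11 such genes 10 were tested, and in HFD 2 rose and 1 fell, with a median of 0.45. Col4a2, a basement membrane collagen, rose by 0.86. Agt, the precursor of angiotensin, was at 104 FPKM in ND and 34.2 FPKM in HFD, a drop of -1.58 (adjusted p = 7.1e-05), and was higher in CLE by 1.05 and in LU by 0.99 than in HFD. Of 9 tested regulators of fat cell formation, 2 fell and none rose in HFD, with a median of -0.48. Ebf2 fell by 0.84 and Gata2, a factor that holds back the fat cell fate, fell by 0.93, and Gata2 was higher in CLE by 1.01. Of 8 genes of mature fat cells, 7 fell and 1 rose in HFD: Pck1, the enzyme that feeds glycerol synthesis, fell by 2.36 and Lep, the leptin gene, rose by 2.35. The part of mature fat cells in the Agt values and in the rest of the list was not tested.

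Cd24a encodes a small glycoprotein that is lost as progenitors commit to the fat cell fate. It measured 7.53, 6.81 and 6.39 FPKM in ND, 5.63, 6.19 and 4.82 FPKM in HFD, 5.42, 6.22 and 5.70 FPKM in CLE and 6.77, 6.00 and 9.45 FPKM in LU. The HFD and the CLE mice were all below the ND mice, and LU mouse 8 was the highest of all. No comparison passed the test: the difference was -0.28 for HFD against ND (SE 0.14, adjusted p = 0.119), 0.05 for CLE against HFD (SE 0.14, adjusted p = 0.7995) and 0.34 for LU against HFD (SE 0.14, adjusted p = 0.0872). The 11 genes of the epididymal epithelium summed to 7.62 FPKM in LU mouse 8, the library highest in Cd24a, and to 0.11 and 2.31 FPKM in the other LU mice. Krt8, a keratin of epithelia that is listed here with the mesothelial genes, was at 4.78 FPKM in LU mouse 8 and at 0.30 and 0.48 FPKM in the others. Crisp1, the only tested gene of the 11, was however lower in LU mouse 8 (1.23 FPKM) than in LU mouse 3 (2.17 FPKM). ND mouse 4 had a sum of 6.65 FPKM and Krt8 at 4.10 FPKM, yet the lowest Cd24a of the ND mice (6.39 FPKM). Without LU mouse 8 the difference of Cd24a between LU and HFD was 0.18 (adjusted p = 0.292). The part of epithelial RNA in Cd24a was not tested. The summed level of 6 B-cell genes was 3.70 to 8.65 FPKM in ND and 4.96 to 7.46 FPKM in HFD, with 2 of 6 above the filter. One of them, Cd22, also a gene of other leukocytes, was higher in HFD (1.44) and lower in CLE (-1.50) and LU (-0.88), while Cd79a, Ms4a1, Blk and Pax5 stayed below the filter. Without Cd22, the B-cell sum was 3.07 to 6.56 FPKM in ND and 1.41 to 2.29 FPKM in HFD, lower in HFD without overlap, as was Cd24a. Cd79b, the only tested gene left in that sum, overlapped between ND and HFD (-0.12, adjusted p = 0.6, limma), and the rest of the sum lies below the filter. The part of B cells was not tested. Of 7 neutrophil genes 2 were tested, S100a8, which rose by 3.26, and S100a9, which fell by 0.79 from a mean of 1.42 FPKM, and the granule genes Mpo, Camp and Ngp and the surface gene Ly6g were at or near 0 in all groups, while Elane, also of granules, was at 1.23, 1.21 and 0.88 FPKM in ND and 0.18, 0.33 and 0.53 FPKM in HFD.

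F3 encodes tissue factor, which starts blood clotting and marks the restraining population. Its values were 29.7, 28.7 and 32.0 FPKM in ND, 25.4, 25.1 and 25.9 FPKM in HFD, 28.3, 23.9 and 30.7 FPKM in CLE and 25.01, 37.2 and 29.7 FPKM in LU. HFD mice were close to each other and below all ND mice, whereas the supplemented mice spread around both. For HFD against ND the difference was -0.23 (SE 0.13, adjusted p = 0.162). It was -0.50 both in the highest transcript alone (adjusted p = 0.0359) and with full Ensembl matches only (adjusted p = 0.0345), and -0.38 with the R label as a covariate (adjusted p = 0.0386), none of which was beyond the fold limit. The difference was 0.10 for CLE against HFD (SE 0.13, adjusted p = 0.576) and 0.24 for LU against HFD (SE 0.13, adjusted p = 0.202). ENSMUST00000029771 held 72.1% of the signal and an assembled variant 13.0%, the latter at almost 0 in ND mouse 2.

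Other genes of the F3+ population were called in both directions. All 10 were tested, and 4 rose and 2 fell in HFD, with a median of 0.23. Mgp, an inhibitor of calcification, rose by 1.46 from 54.2 to 152 FPKM, Bgn, a matrix proteoglycan, rose by 1.40, Aldh1a2, an enzyme of retinoic acid synthesis, rose by 1.42 and Igfbp3 rose by 0.80. Fmo2, a monooxygenase, fell by 0.89 and Meox2, a homeobox factor, fell by 0.73. In CLE against HFD, 4 fell (Mgp by 1.52, Aldh1a2 by 1.00, Bgn by 0.96 and Clec11a by 0.73) and Meox2 rose by 0.69. In LU against HFD, 3 fell (Mgp by 1.11, Bgn by 0.62 and Aldh1a2 by 0.61) and Meox2 rose by 0.76. Gdf10, Vit and Cygb were called in none of these comparisons. Several of the genes are also made by other stromal cells. Mesothelial genes, of the cell layer that covers the fat pad, were lower in HFD: 5 of 8 tested fell, none rose, and the median was -1.41. Upk3b fell by 2.36 and Lrrn4 by 1.90. Upk3b was at 1.47, 8.80 and 25.6 FPKM in ND, highest in ND mouse 4, and at 2.06, 0.49 and 0.05 FPKM in HFD, so that the groups overlapped, and the summed level of the listed mesothelial genes was 13.2 to 67.6 FPKM in ND and 2.36 to 8.06 FPKM in HFD. Their part in the F3 values was not tested.

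**Figure D5:**
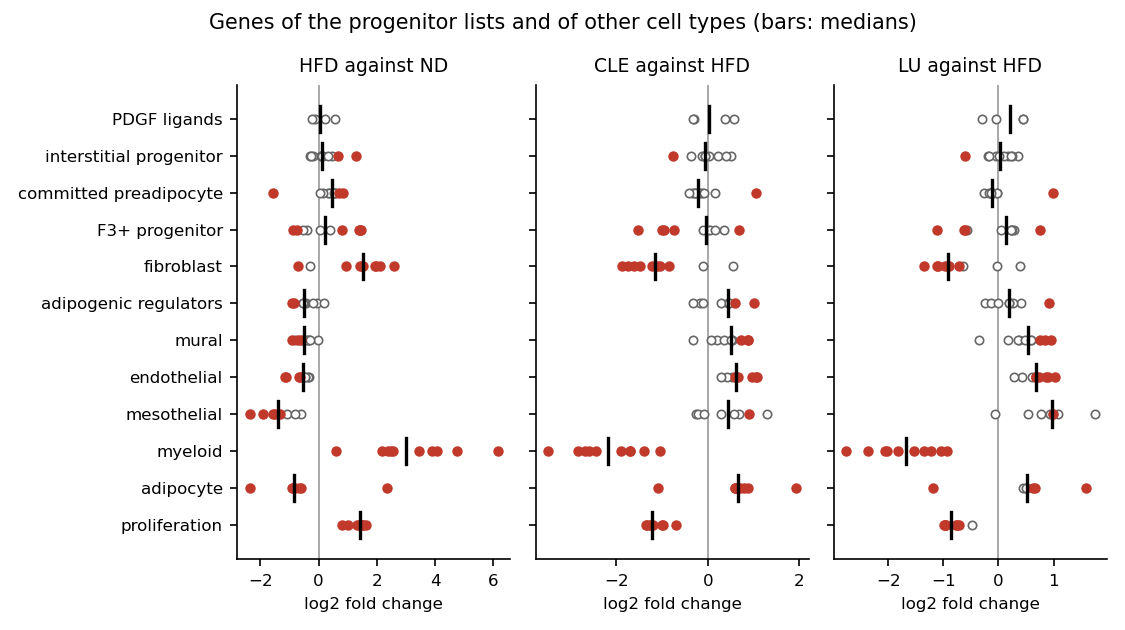
Log2 fold changes, on the log2(FPKM + 1) scale, of every tested gene of 12 lists in HFD against ND, CLE against HFD and LU against HFD, with filled points for called genes and a bar at the median of each list. In HFD against ND the interstitial and committed progenitor lists have medians of 0.12 and 0.45 and the myeloid list a median of 3.01.

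The supplements were also compared with each other and with ND. In CLE against LU none of the 9 was called, with 0.00783% of all genes called. None was called in CLE against ND (2.91% of all genes) or in LU against ND (6.59% of all genes). Before adjustment in limma, no member was under 0.05 in CLE against LU or in CLE against ND. In LU against ND, Pdgfrb (0.51, SE 0.20) and Thy1 (0.52, SE 0.18) were under it, and their adjusted p was 0.125 and 0.0889. Thy1 was called in LU against ND without ND mouse 4 (0.74, adjusted p = 0.0137), and Pdgfrb was called with only the transcripts that match Ensembl in full (0.74, adjusted p = 0.0495). CLE and luteolin were given at different doses, so their values are set side by side. For Pdgfra, the interval of the difference between CLE and LU was -0.35 to 0.80, and for Cd34 it was -0.46 to 0.09, which leaves room for differences in either direction.

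Ratios within a library do not depend on how the library was scaled. Relative to Pdgfra, Ly6a stood at 5.14, 6.38 and 5.43 in the HFD mice, at 8.85, 8.82 and 17.1 in the ND mice, at 7.47, 9.33 and 16.7 in the CLE mice and at 10.3, 20.04 and 15.7 in the LU mice. The HFD mice were the lowest in this ratio without overlap. Cd24a and F3 relative to Pdgfra were also lower in all HFD than in all ND mice. In HFD against ND, 3 of 8 ratios did not overlap, in CLE against HFD 1 and in LU against HFD 2. The share of all genes with separated ratios to Pdgfra was not computed. For FPKM itself, 59.5%, 50.6% and 47.6% of all genes tested did not overlap in these comparisons. All 8 ratios share Pdgfra as denominator, so they are not independent of each other. Over the family of 48 ratio comparisons the lowest exact two-sided permutation p was 0.1, which became 0.686 after Benjamini-Hochberg adjustment.

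Among the 9 genes, single mice tended to be low in several at once. CLE mouse 11 had the lowest Pdgfra, Dpp4, Pi16, Cd34 and Thy1 of its group, and LU mouse 8 the lowest Pdgfra, Dpp4, Pi16, Cd34 and Thy1 of its group, and each had the highest Pdgfrb of its group. These mice also had the most Trem2 in their groups, a macrophage gene. It was at 43.5 FPKM in CLE mouse 11 against 6.25 and 11.5 FPKM in the other CLE mice. In LU mouse 8 it was at 47.6 FPKM against 21.2 and 16.4 FPKM in the other LU mice. The summed level of the 10 myeloid genes was highest in them too, at 894 FPKM in CLE mouse 11 and 1073 FPKM in LU mouse 8. Cd14, however, was not the highest of its group in CLE mouse 11, nor were Ptprc, Csf1r, Itgam and Cd14 in LU mouse 8. The HFD mice had 163 to 209 FPKM of Trem2 and the highest group means of Pdgfra, Dpp4, Pi16, Cd34 and Thy1. The part of macrophages in the low values of CLE mouse 11 and LU mouse 8 was not tested. Across the 12 libraries, which pool 4 diets and so are described without a test, Cd34 and Thy1 had a Pearson correlation of 0.85 on the log2 scale (Spearman 0.91), or 0.71 after the group means were removed. For Cd34 and Dpp4 it was 0.72 (Spearman 0.56), or 0.73 after removal of group means. Pdgfra and F3 ran in opposite directions, at -0.74 (Spearman -0.73) and -0.70. Pdgfra and Pdgfrb had -0.20, or -0.51 after removal of group means.

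Outside the 9, the genes with the most similar profile were sought among 9291 genes with a mean of at least 5 FPKM, by Pearson correlation over the same 12 libraries. The closest to Pdgfra was Sbno1 (0.91, and 0.98 after removal of group means), and to Pdgfrb it was Myh9 (0.95, and 0.92). Cd34 was nearest to Rbl1 (0.95, and 0.95) and Ly6a to Gpx7 (0.95, and 0.91). Dpp4 was nearest to Sfrp4 (0.86, and 0.92), followed by Islr (0.85, and 0.97), and Pi16 to Gfpt2 (0.88, and 0.90). The profile of Thy1 was nearest to that of Sumo3 (0.95, and 0.87), that of Cd24a to Gstm5 (0.90, and 0.93) and that of F3 to Hist3h2a (0.92, and 0.89). These were the highest of 9291 correlations for each gene and are given as a description.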

How the data were processed

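Total RNA of epididymal adipose tissue was sequenced as paired-end mRNA libraries. Per the labels and the methods, the authors used CASAVA 1.8.2, Bowtie2 2.2.3, TopHat2 2.0.12 and Cufflinks 2.2.1 and deposited FPKM per transcript. The build is not given in the sources used here. Of 78786 known transcripts, 77000 were found in GENCODE M21 (GRCm38), and 87.6% of them had the same ends. The authors' own comparison columns (marks for fold change and p limits) and 3 FPKM columns of other libraries were not used. FPKM was summed per gene over 140416 transcripts that matched Ensembl in full or shared a junction with it. Reads were not recovered, since 16.5% to 20.8% of low values came out whole (within 0.05) against 10% by chance.

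Genes with at least 1 FPKM in at least 3 libraries were fitted on log2(FPKM + 1) with limma 3.58.1 in R 4.3.3, all 12 libraries together, 1 coefficient per group. Fold changes on this scale understate those of low genes. Single values were compared by exact two-sided permutation (SciPy 1.17.1). The fit was tested on simulated data. The 9 genes, the 16 gene lists and the tests were chosen with earlier results of these data known. Of each list, the 2 genes with the largest called change were named, and all genes of the PDGF ligand, interstitial and F3+ progenitor lists. The alternatives covered the pseudocount (0.1), the filter (none, or a mean of 5 FPKM), the scaling (totals, medians, quantiles), the groups fitted, the variance model, weights, the R label, the call rule, the choice of transcripts, each library left out and the mouse number as a block.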

Additional observations from a re-analysis of the deposited data

How the results depend on the processing

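Of 27 alternatives, most kept the counts of called genes among the 9. In HFD against ND the count was 3, and 1 to 3 when single libraries were left out, with 1 without HFD mouse 18, where Pdgfrb and Ly6a were lost. It was 4 with the adjusted p alone and 2 without the filter, with equal totals, quantiles, array weights, the R label as a covariate or the highest transcript. The unmarked libraries hold ND mouse 2 as the only ND library, so no count is given for them in HFD against ND. In CLE against HFD the count of 1 became 0 without the filter on low values, 2 with the adjusted p alone (Thy1 and Cd34), and 0 to 1 with single libraries left out, with 0 without HFD mouse 15, HFD mouse 18 or CLE mouse 11. In LU against HFD the count of 1 became 2 among libraries without the letter R (Ly6a and Pdgfra) and 0 to 2 with single libraries left out, with 0 without LU mouse 3 and 2 without LU mouse 2. In LU against ND the count of 0 became 1 with full Ensembl matches and 0 to 1 with single libraries left out, with 1 without ND mouse 4. CLE against LU and CLE against ND gave 0 called genes under all alternatives run. The rise of Thy1 in HFD against ND was called under all 26 alternatives that apply to it, the lower Ly6a in 20, the higher Pdgfrb in 19, the lower Thy1 in CLE in 22 and the higher Ly6a in LU in 25. Not all of these were separate checks. The adjusted p alone only loosens the rule, and leaving out a mouse outside the comparison changes the p and not the difference. The tallies include the unmarked libraries, with ND mouse 2 alone for ND. For Ly6a, the highest transcript is the one that also covers Ly6c1. No called difference changed sign. Among differences that were not called in the comparisons with HFD, Dpp4 in CLE against HFD became 0.01 without CLE mouse 11, and Cd24a in CLE against HFD (-0.03) and Pdgfrb in LU against HFD (0.05) changed sign without HFD mouse 18. No scaling moved the median of all genes by more than 0.1. The cause of these changes was not tested, and some of the fits also had fewer libraries.

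Mouse numbers of ND recur in CLE and LU. The deviations of same-numbered mice correlated at -0.0989 to 0.189, and those of differently numbered mice of different groups at -0.261 to 0.332. Whether same-numbered mice share more than a number cannot be told from so few pairs. A fit with the mouse number as a replicate block over 7 libraries gave 0 called genes in CLE against ND and 0 in LU against ND, as without it. HFD shares no number with the other groups. Depth limits cannot be stated for FPKM without counts.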
